A study of Mus musculus with 48 samples.

Results

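The 891 sites described here are places in the mouse genome where tagged CTCF proteins with a single amino acid change gave a peak in at least 3 of 9 mutant cell lines, while neither the tagged wild-type (WT) protein nor a CTCF antibody gave a peak in the WT line. They were found by joining overlapping peaks of the 9 mutant FLAG lists into 67753 intervals, and by keeping intervals that overlapped a peak of 3 or more of those lists and no peak of the WT FLAG list or of either CTCF antibody list. The 891 recurrent sites are 1.32% of all intervals, and 4 other sets are used beside them. These are 20843 sites also absent in WT but present in 1 or 2 mutant lists, 1781 of which are in exactly 2, then 14209 mutant sites with a WT FLAG peak and 31810 with a CTCF antibody peak alone. A site counts as absent when no peak was listed there, which does not show that no protein was bound.

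CTCF is a DNA-binding protein with an array of zinc fingers that recognise a long sequence motif. In embryonic stem cells, as in other cells, it halts the cohesin ring as cohesin extrudes DNA, and so sets the borders of chromatin loops and domains. SMC3 is a core subunit of the cohesin ring, so an SMC3 peak marks where cohesin sits.

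The cells, E14Tg2a of strain 129/Ola, are embryonic stem cells of the mouse. All lines share a degron on endogenous CTCF, which indole-3-acetic acid (IAA) sets off, and each carries 1 Ctcf transgene that doxycycline switches on. The transgene was an arginine mutant (R339Q, R342C, R377C, R377H or R448Q), another mutant (S354F, K365T, Q418R or H455R) or, in the line they are set against, WT, each mutant name giving the changed residue. Every mutant line, and the WT line for FLAG, SMC3 and one CTCF antibody list, was given 500 µM IAA and 1 µg/ml doxycycline, for 2 days; the other CTCF antibody list is from untreated WT cells. ChIPmentation, an immunoprecipitation in which a transposase adds the sequencing adapters on the beads, was done against the FLAG tag, SMC3 or CTCF. The labels give 2 replicates a group, but each deposited list pools them, so every group has 1 value and no spread between replicates can be given. Intervals in parentheses are 95% Wilson intervals, which cover counting error over sites only. Peak lists do not measure gene expression, so the cell type was not checked against its markers, and the depth of the libraries is unknown.

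Before the results, 3 features of the lists should be known. FLAG lists held between 3855 peaks (H455R) and 30462 peaks (R377C) in the mutants, against 15392 in WT. The peak names carry library codes whose meaning the sources used here do not state. The FLAG codes were 114 to 127 alone in S354F, K365T, Q418R and H455R, while R339Q, R342C, R377C, R377H and R448Q each had a code of 261 or above, and WT had 131 and 135. The other code was a low one in R339Q (110), R377C (119), R377H (120) and R448Q (125). Only R342C had higher codes alone (277 and 278). FLAG and SMC3 lists shared 2 codes in K365T, Q418R and H455R, as in WT, 1 code in S354F, R377H and R448Q, and 0 codes in R339Q, R342C and R377C.

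Recurrent sites almost never lay at promoters. Only 3 of the 891 overlapped a RefSeq promoter, defined as the 250 bases before to 50 after a gene start. Because those 3 sites are the ones whose DNA can be read from the promoter sequences used here, their sequences are shown with the bases inside the recurrent site in capitals (RefSeq, GRCm38.p6, 5′ to 3′ on the gene's strand).
C330024C12Rik, chr17:87194893-87195192, minus strand: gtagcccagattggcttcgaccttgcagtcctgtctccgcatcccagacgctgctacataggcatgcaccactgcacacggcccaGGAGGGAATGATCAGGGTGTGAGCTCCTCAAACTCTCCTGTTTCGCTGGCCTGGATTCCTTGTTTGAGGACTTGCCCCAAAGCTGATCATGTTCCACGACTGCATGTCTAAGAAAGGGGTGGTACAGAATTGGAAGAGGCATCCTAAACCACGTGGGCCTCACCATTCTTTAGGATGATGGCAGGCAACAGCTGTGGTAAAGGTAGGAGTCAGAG
Fbll1, chr11:35798835-35799134, minus strand: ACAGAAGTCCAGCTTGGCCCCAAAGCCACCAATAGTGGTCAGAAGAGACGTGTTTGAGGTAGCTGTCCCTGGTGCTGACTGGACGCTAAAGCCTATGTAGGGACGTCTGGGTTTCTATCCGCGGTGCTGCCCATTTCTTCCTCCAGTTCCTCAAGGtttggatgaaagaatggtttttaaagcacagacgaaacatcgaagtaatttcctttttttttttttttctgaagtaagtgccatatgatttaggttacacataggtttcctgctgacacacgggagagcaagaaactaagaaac
C920009B18Rik, chr10:22306532-22306831, plus strand: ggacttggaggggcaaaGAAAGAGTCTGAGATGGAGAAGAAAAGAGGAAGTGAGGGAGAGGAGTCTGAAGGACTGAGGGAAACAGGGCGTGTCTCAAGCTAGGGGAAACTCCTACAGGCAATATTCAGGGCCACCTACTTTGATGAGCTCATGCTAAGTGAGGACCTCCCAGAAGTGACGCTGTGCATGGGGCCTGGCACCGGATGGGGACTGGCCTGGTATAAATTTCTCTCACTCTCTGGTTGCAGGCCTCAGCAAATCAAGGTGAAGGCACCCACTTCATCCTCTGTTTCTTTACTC
The site at C330024C12Rik, a long noncoding RNA gene, spanned 579 bases and held FLAG peaks of R339Q, K365T and Q418R. Its FLAG peak stood among the strongest of 2 lists: 7.85% of the K365T peaks and 11.2% of the Q418R peaks scored as high or higher, against 61.1% in R339Q. SMC3 peaks lay there in R339Q, R342C, S354F, K365T, R377C, Q418R and R448Q, but not in WT. Fbll1 encodes a fibrillarin-like protein, fibrillarin being the methyltransferase that modifies ribosomal RNA. At Fbll1 the FLAG peaks of K365T, R377H and Q418R were among the weakest of their lists, at 99.6%, 99.9% and 99.8%, while all 10 genotypes, WT included, had an SMC3 peak. At C920009B18Rik, which faces Gm26740 on the other strand, S354F, K365T and R448Q held the FLAG peak and R377C and R377H an SMC3 peak.

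The promoter letters were searched on both strands for AGGNGGC, the centre of the known CTCF motif, and for a longer form, CCNNN directly before AGGNGGC, which contains it. The long form was in 0 of the 4 promoters that a recurrent site overlapped, Gm26740 included, against 24.6% of the 947 promoters under an interval with a WT FLAG peak and 3.43% of all 32851 promoters. The short form was in 1 of the 4, C920009B18Rik, against 51.8% and 29.4%. With 4 promoters, of which that of Gm26740 is not printed, these counts are a description of the promoter windows and say nothing of the sites outside promoters.

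Most recurrent sites only just met the rule. There were 563 in 3 lists, 203 in 4, 87 in 5, 26 in 6, 11 in 7, 1 in 8 and 0 in all 9. R448Q held 587 of them, R377C 578, R342C 420, R377H 386, S354F 311, K365T 295, Q418R 276, H455R 167 and R339Q 157. Without the R377C list the rule kept 562 sites and without the R448Q list 570. The recurrent sites made up between 0.835% of the R339Q list and 4.36% of the H455R list. The sites were chosen by peak calls alone, FLAG peaks in the mutants and no FLAG or CTCF antibody peak in WT. The mutant FLAG peaks that chose them were mostly weak ones. Ranked by the caller's score within each list, with 0% the strongest, their median rank lay between 58.4% in H455R and 80.4% in S354F, whereas peaks at WT FLAG sites had medians between 22.9% (R377C) and 39.8% (K365T). Peaks at the sites in 1 or 2 lists had medians between 62.6% (H455R) and 83.6% (S354F), weaker than at the recurrent sites in 7 mutants and stronger in K365T and Q418R. With only the upper 50% of each mutant list the rule kept 32 sites, and with the 3855 strongest peaks of each list 0. At the edge of the rule, the median of the mean rank was 73.5% for sites in exactly 3 lists and 74.8% for those in exactly 2. The strongest in 2 lists, and so just outside, lay in Syt1, which encodes a synaptic vesicle calcium sensor, with ranks of 17.4% in K365T and 28.2% in Q418R, and near Irf2, an interferon regulatory factor gene, with 32.9% in K365T and 16.0% in Q418R. The strongest in exactly 3 lists, just inside, were a site in Ajap1, an adherens junction protein gene, with ranks of 52.3% in K365T, 30.7% in Q418R and 15.1% in H455R, and the C330024C12Rik site.

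The mutants shared these sites unevenly. By the rule, every site a mutant holds is also in other lists, so high shares are partly built in. R342C and R377C had 362 in common, which is 86.2% of the R342C sites and 62.6% of the R377C sites. Among all FLAG sites absent in WT they had 554 in common, of 1866 in R342C and 2718 in R377C. R377C and R448Q had 380 in common, 65.7% and 64.7% of theirs. K365T and Q418R had 185 in common, 62.7% and 67.0%, and Q418R and H455R 118, 42.8% and 70.7%. Among all FLAG sites absent in WT, K365T and Q418R had 352 in common, of 1846 in K365T and 9675 in Q418R. By contrast R342C shared 14 with Q418R and 14 with H455R, and R339Q shared 11 with H455R. Of 156 combinations of mutants, R342C with R377C and R448Q was the commonest, at 89 sites, then R342C with R377C and R377H, at 51. The first combination without R342C or R377C was K365T with Q418R and R448Q, at 37. Lists with lower library codes alone and lists with a higher code both took part in 551 of the 891 sites (61.8%). Only lists of the first kind held 48 (5.39%), and only lists of the second kind held 292 (32.8%). Lists of the second kind, R342C apart, also pool a lower code, so the 2 kinds are not separate sets of codes. For the 1781 sites in exactly 2 lists these shares were 35.7%, 23.0% and 41.3%. A site in more lists can span both kinds more easily, so these shares are a description. The part of the library codes in the sharing was not tested.

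**Figure D1:**
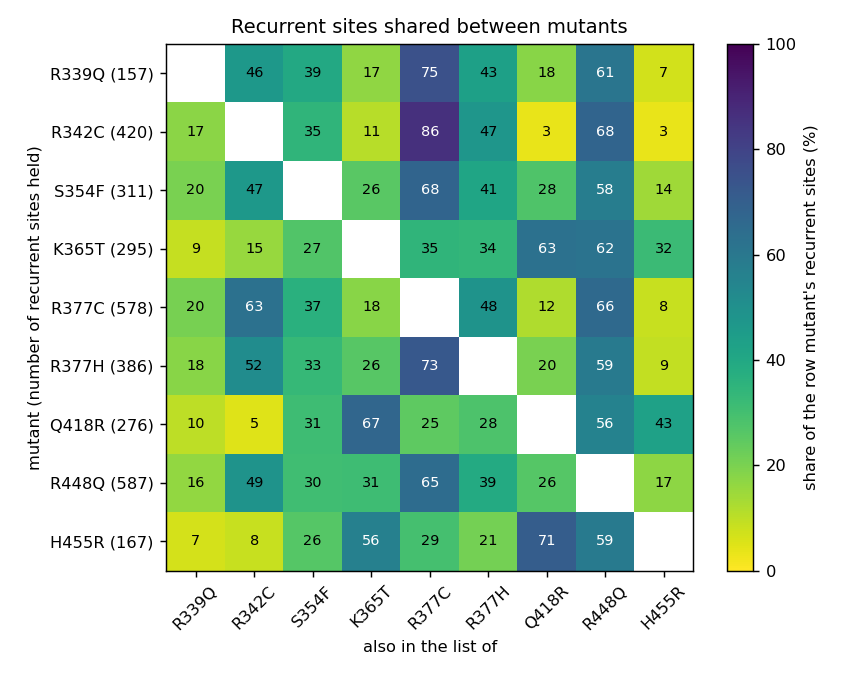
Sites shared between mutants. Each cell gives the share (%) of the recurrent sites held by the mutant of the row that are also in the list of the mutant of the column; numbers of sites held stand beside the row names. Of the R342C sites 86.2% were also in the R377C list, whereas 14 of 420 were in the Q418R list.

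The site in the most lists, 8 of 9, lay on chromosome 2 (30203305 to 30204009) in the span of Kyat1, which encodes a kynurenine aminotransferase. Only H455R lacked it. Its ranks were 56.5% in R339Q, 54.0% in R342C, 65.4% in S354F, 79.7% in K365T, 38.6% in R377C, 55.4% in R377H, 42.2% in Q418R and 93.9% in R448Q, so that it was a middling peak in most lists. SMC3 peaks lay there in 7 mutants (not Q418R and H455R) and in WT.

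All 11 sites found in 7 lists lay on chromosomes 1, 8, 11 and 17. Plekhh2, which encodes a pleckstrin homology domain protein, held a pair of them on chromosome 17, at 84613976 to 84614619 and 84555685 to 84556303, the first without R448Q and H455R, the second without Q418R and H455R. The ranks of the first were 44.5% in R339Q, 38.4% in R342C, 39.9% in S354F, 67.2% in K365T, 58.0% in R377C, 62.3% in R377H and 66.8% in Q418R. The first had an SMC3 peak in R342C alone and the second in no genotype. Alk, a receptor tyrosine kinase gene, and Galnt14, which encodes an enzyme that starts mucin-type glycosylation, lay on the same chromosome. The Alk site (72276776 to 72277131) had SMC3 peaks in 6 mutants and none in WT, and the Galnt14 site (73487920 to 73488453, 4.75 kb from the gene) had them in all 10 genotypes. On chromosome 8 the sites lay in Col4a1, a basement membrane collagen gene, in Plcg2, a phospholipase C gene of immune signalling, 20.7 kb from Foxf1, a forkhead factor gene of mesoderm, and 163 kb from Zfp703, a zinc-finger gene. On chromosome 11 the site lay in Fstl4, a follistatin-like gene, and had SMC3 peaks in 8 mutants and WT. On chromosome 1 they lay in Tmem14a, a membrane protein gene, and 318 kb from Hlx, a homeobox gene. The Plcg2, Tmem14a and Zfp703 sites had no SMC3 peak in any genotype, like the second Plekhh2 site, while Col4a1 had one in R448Q alone. SMC3 was thus found in every genotype at 1 of the 11 sites and in no genotype at 4.

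Chromosomes 1, 8, 11 and 17 held 483 of the 891 sites, 54.2% (50.9 to 57.5). They held 40.4% (39.7 to 41.0) of the sites in 1 or 2 mutant lists, 25.9% of those with a CTCF antibody peak alone and 23.2% (22.5 to 23.9) of those with a WT FLAG peak. These 4 chromosomes were picked after their values were seen, so the shares describe the sites and carry no test. Chromosome 8 had 152 recurrent sites (17.1%), chromosome 1 had 122, chromosome 11 had 109 and chromosome 17 had 100, whereas chromosome 19 had 2 and the X chromosome 0. The number of lists moved with this share, though not at every step: it was 39.4% in 1 list, 51.2% in 2, 49.9% in 3, 58.6% in 4, 58.6% in 5, 80.8% of the 26 in 6 and 100% of the 11 in 7. The only site in 8 lists, that in Kyat1, lies on chromosome 2 and so outside them.

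**Figure D2:**
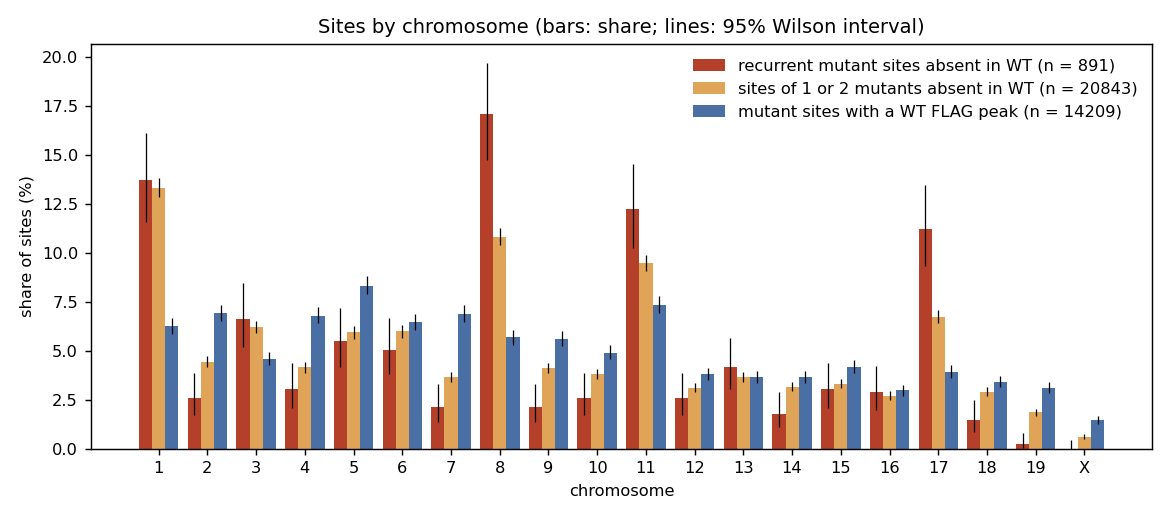
Share (%) of sites on each chromosome for the 891 recurrent sites, the 20843 sites of 1 or 2 mutants and the 14209 mutant sites with a WT FLAG peak; lines are 95% Wilson intervals. Chromosomes 1, 8, 11 and 17 held 54.2% of the recurrent sites, against 23.2% of the sites with a WT FLAG peak.

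Different mutants led on different crowded chromosomes, R448Q on more than one. R448Q held 136 of the 152 sites on chromosome 8, 106 of the 122 on chromosome 1 and 57 of the 59 on chromosome 3. R377H held 94 of the 109 on chromosome 11. S354F held 67 and Q418R 59 of the 100 on chromosome 17. H455R had 67 of its 167 recurrent sites (40.1%) on chromosome 8. The same mutants had the same chromosomes in excess among all their FLAG sites absent in WT, recurrent or not. Chromosome 8 held 58.7% of these in H455R and 3.63% to 21.9% in the other mutants. Chromosome 11 held 44.5% in R377H and 23.8% in K365T. Chromosome 1 held 29.0% in R448Q and 23.3% in K365T, and chromosome 3 held 17.5% in R448Q.

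SMC3 lists, which the rule did not use, were tilted to the same chromosomes against WT in H455R, R377H, K365T, R448Q and Q418R. The tilt was smaller in R339Q and S354F, and was not seen on the leading chromosome of R342C and R377C. This was measured on SMC3 peaks of each genotype that overlapped no CTCF antibody peak and no FLAG peak. Chromosome 8 held 13.8% of them in H455R and between 3.18% and 8.84% in the other mutants, against 3.13% in WT. Chromosome 11 held 17.9% in R377H and 13.1% in K365T, against 3.64% in WT. Chromosome 1 held 13.0% in R448Q and 12.3% in K365T, against 4.16% in WT, and chromosome 3 held 10.2% in R448Q, against 3.65% in WT. In R342C and R377C the leading chromosome of the FLAG sites absent in WT was 6, with 12.6% and 12.1%, and their SMC3 shares there, 10.6% and 11.4%, were below the 14.4% of WT. In R339Q and S354F it was 17, with 13.3% and 13.8%, and their SMC3 shares there were 5.32% and 4.96%, against 3.90% in WT. In Q418R chromosomes 1 and 17 led the FLAG sites absent in WT, with 14.6% and 9.22%. Its SMC3 shares there were 9.01% and 6.54%, against 4.16% and 3.90% in WT. Q418R also stood apart on chromosome 6, with 1.60% of its SMC3 peaks there and 7.31% to 14.3% in the other mutants, against 14.4% in WT. Of the 45 recurrent sites on chromosome 6 Q418R held 1, but so did H455R, and K365T held 2. Peak lists do not measure how many copies of a chromosome a line carries, so a share of peaks cannot be read apart from it. SMC3 and FLAG lists of some genotypes share library codes, and the part of these chromosome-wide differences in the recurrent sites was not tested.

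**Figure D3:**
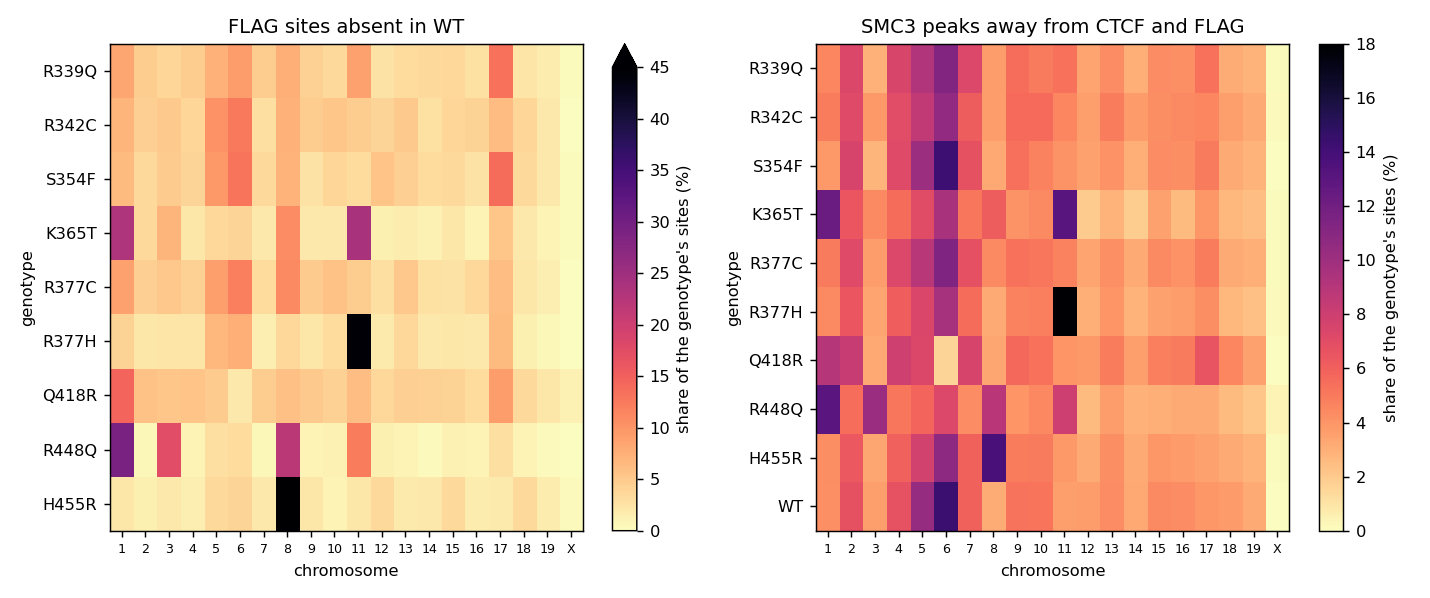
Share (%) of each genotype's sites on each chromosome, for mutant FLAG sites absent in WT (left, colour limit 45%) and for SMC3 peaks that overlap no CTCF antibody or FLAG peak (right). The panels have dark cells in common for H455R on chromosome 8 (58.7% and 13.8%) and R377H on chromosome 11 (44.5% and 17.9%), whereas chromosome 6 is dark on the right in H455R (10.7%) and pale on the left (3.90%).

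On chromosome 17 the sites were packed into one stretch. Between 70 and 90 Mb, a window chosen after the values were seen, lay 78 of the 891 recurrent sites, 8.75% (7.07 to 10.8), among them those in Plekhh2 and Alk and near Galnt14. The same window held 4.14% of the sites in 1 or 2 mutant lists, 1.10% of those with a CTCF antibody peak alone and 0.429% of those with a WT FLAG peak. Among all FLAG sites absent in WT it held 11.3% in S354F and 1.48% in H455R, the highest and lowest of the 9 mutants. Of SMC3 peaks away from CTCF and FLAG, it held between 0.674% (R448Q) and 1.02% (Q418R) in 8 mutants, but 0.218% (0.184 to 0.258) in H455R and 0.188% (0.148 to 0.239) in WT. So here WT stood low with H455R in a readout the rule did not use, and the other 8 lines stood above both. Their intervals did not overlap those of WT and H455R. With 1 list a line, these intervals cover counting error over peaks and carry no test between lines. Of the CTCF antibody peaks of the WT line, 0.563% lay in the window in treated cells and 0.536% in untreated cells. The number of copies of this stretch in each line was not measured, and the part of the low WT values in calling these 78 sites absent in WT was not tested.

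**Figure D4:**
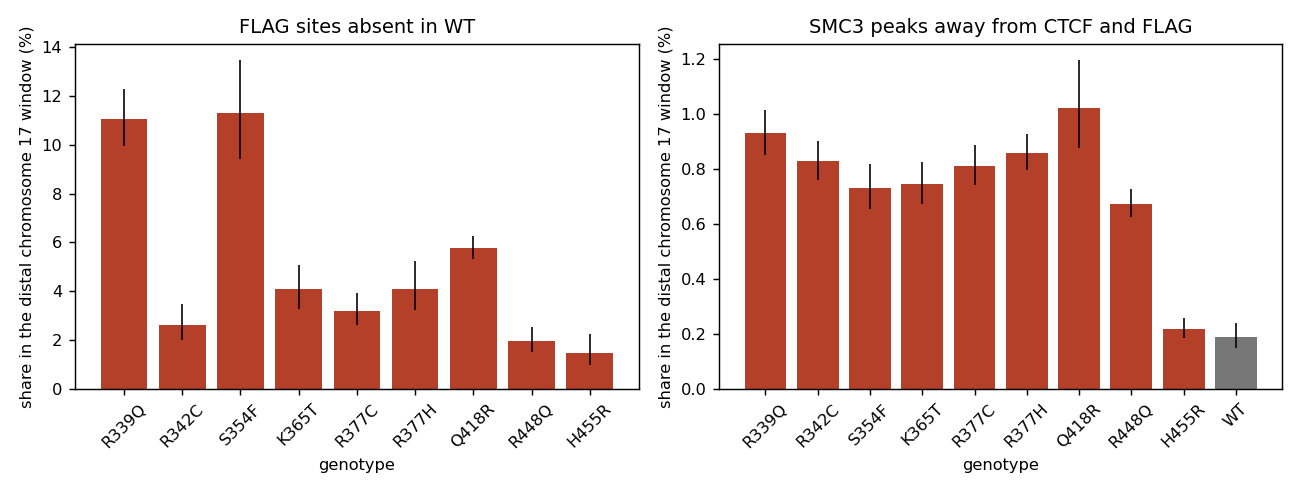
Share (%) of each genotype's sites that lie between 70 and 90 Mb of chromosome 17, for mutant FLAG sites absent in WT (left) and SMC3 peaks that overlap no CTCF antibody or FLAG peak (right); lines are 95% Wilson intervals. On the right, 8 mutants lie between 0.674% and 1.02%, above H455R (0.218%) and WT (0.188%).

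Away from promoters, recurrent sites were found in gene bodies and between genes. The 3 promoter sites are 0.337% (0.115 to 0.985), where 3.95% of all intervals overlapped a promoter, 2.61% of the sites in 1 or 2 mutant lists and 5.60% of those with a WT FLAG peak. Counting also the sites within 1 kb of either end of a gene's span, 30 sites (3.37%, 2.37 to 4.77) qualified, where 14.3% of all intervals did, 9.58% (9.19 to 9.99) of the sites in 1 or 2 lists and 17.9% of those with a WT FLAG peak. The share was 9.79% for sites in 1 list, 7.36% in 2, 4.09% in 3, 1.97% in 4, 2.30% in 5, 0% of the 26 in 6 and 9.09% (1 site) of the 11 in 7. Gene bodies held 48.5% of the recurrent sites, 48.9% of the sites in 1 or 2 lists and 42.8% of those with a WT FLAG peak, and the rest lay between genes. The table of genes gives spans without strand, so exons, introns and UTRs could not be told apart. Recurrent sites were 273 bases wide at the median (102 to 705), those in 1 or 2 lists 149 and those with a WT FLAG peak 739, but width depends on the rule, since peaks of several lists were joined.

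The recurrent sites lay farther from the WT peaks than the sites in 1 or 2 lists. Within 1 kb of a WT FLAG or CTCF antibody peak lay 6.40% of the recurrent sites and 15.1% of the sites in 1 or 2 lists, and within 10 kb 46.2% and 57.4%. Both sets met the same demand of no overlap with such a peak, but recurrent sites are wider. The part of width in this gap was not tested.

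Of the recurrent sites, 299 of 891 (33.6%) had another recurrent site within 100 kb. A recurrent site lay within 100 kb of 15.2% of the sites in 1 or 2 lists, 7.16% of those with a CTCF antibody peak alone and 7.27% of those with a WT FLAG peak. Without chromosomes 1, 8, 11 and 17 the share among recurrent sites was 17.6%, a value that falls with the number of sites. There were 116 groups, 38 of them with 3 or more sites, beside 592 single sites. The group with the most sites, 7 within 57.0 kb, lay on chromosome 1 (171516407 to 171573358) and ran from near Itln1, which encodes a carbohydrate-binding intelectin, into the span of Cd244a, a natural killer cell receptor gene. Groups of 6 lay in Rbfox3, the gene of the neuronal splicing factor NeuN on chromosome 11, and on chromosome 8 at sites whose nearest genes were Tex29 and A230072I06Rik. In all, 357 sites (40.1%) fell in the spans of 250 protein-coding genes. Cdh13, which encodes T-cadherin, held 11 in a span of 1185 kb, Rbfox3 9 in 422 kb, Alk 7 in 736 kb, Asic2, an acid-sensing ion channel gene, 6 in 1088 kb and Kcnip1, a potassium channel partner gene, 6 in 364 kb. All 5 lie on chromosomes 8, 11 or 17. One Cdh13 site in 6 lists (chromosome 8, 118883532 to 118884171) was in R339Q, R342C, S354F, R377C, R377H and R448Q, with ranks of 37.7%, 40.5%, 53.0%, 37.9%, 84.5% and 42.7% in that order, and had no SMC3 peak in any genotype.

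None of the gene groups examined had a recurrent site within 10 kb, where 318 of 21887 protein-coding genes (1.45%) had one. At that share groups of this size would hold few such genes, and their lack was not tested. The groups were 12 pluripotency genes, 17 genes of cohesin, its regulators and Ctcf, and 57 clustered protocadherins (neuronal adhesion genes whose promoter choice depends on CTCF). After these came 39 Hox genes, 25 imprinted genes, 97 ribosomal protein genes, 17 lineage genes and 9 germline genes. A WT FLAG peak lay within 10 kb of 6, 9, 45, 29, 9, 39, 6 and 1 of them, in the same order, and of 35.8% of all protein-coding genes.

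The question for cohesin was whether SMC3 came to the recurrent sites. The rule used no SMC3 list, but it removed sites with a WT FLAG or CTCF antibody peak. Since 95.5% of the sites with a WT FLAG peak had SMC3, a share below that of all intervals is partly built in. The sites in 1 or 2 lists met the same demand of absence in WT, though they are narrower. Their SMC3 share, from 4.27% in Q418R to 20.7% in R448Q, was below that of the recurrent sites in every genotype. In each genotype a minority of the recurrent sites had an SMC3 peak. R448Q had one at 206 of the 891 (23.1%), where 45.4% of all intervals had one, R342C at 158 (17.7%, all intervals 38.5%) and K365T at 149 (16.7%, all intervals 33.1%). R377H had one at 145 (16.3%, all intervals 34.1%), H455R at 121 (13.6%, all intervals 26.6%) and R377C at 95 (10.7%, all intervals 29.9%). S354F had one at 85 (9.54%, all intervals 28.6%), R339Q at 72 (8.08%, all intervals 26.7%) and Q418R at 50 (5.61%, all intervals 23.5%). In WT, where the sites had no FLAG peak, SMC3 lay at 96 (10.8%, 8.90 to 13.0; all intervals 31.3%), and without replicates these 10 shares carry no test. The intervals of R448Q, R342C, K365T and R377H lay above that of WT and that of Q418R (4.28 to 7.32) below it. R448Q also had the longest SMC3 list (153647 peaks) and Q418R the shortest (42030), and the part of list length was not tested. Counting any genotype, 307 recurrent sites (34.5%, 31.4 to 37.6) had SMC3, where 59.9% of all intervals did, as did 31.5% of the sites in 1 or 2 lists and 95.5% of those with a WT FLAG peak. Just 22 had it in all 10 genotypes, among them those near Galnt14, Ube2ql1 and Fbll1 and a second Fstl4 site (chromosome 11, 53035171 to 53035647).

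SMC3 was then set against FLAG within each mutant. At recurrent sites with the mutant's own FLAG peak, SMC3 lay at 35.3% in H455R, against 8.56% of the recurrent sites without it, at 34.6% against 7.89% in K365T, and at 15.9% against 0.976% in Q418R. In the other 6 mutants it was not so. S354F had 10.6% with FLAG against 8.97% without, R448Q 23.0% against 23.4%, R377H 14.8% against 17.4%, R339Q 5.73% against 8.58%, R377C 5.71% against 19.8% and R342C 8.81% against 25.7%. Over the 9 mutants the difference averaged 3.69 percentage points (SD 15.9), positive in 4 and negative in 5, and was not distinguished from 0 (exact two-sided sign-flip permutation test, p = 0.539, smallest p possible 0.00391).

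The split ran parallel to the number of library codes shared. The difference was 15.0 to 26.8 points in the 3 mutants whose FLAG and SMC3 lists share 2 codes, -2.66 to 1.65 in the 3 that share 1 and -16.9 to -2.85 in the 3 that share 0. Differences were also found in the WT SMC3 list, where no mutant protein was present. WT SMC3 lay at 26.1% of the recurrent sites held by Q418R, against 3.90% of those it lacked. It lay at 24.6% against 7.60% for H455R and at 21.0% against 5.70% for K365T. For Q418R the WT difference, 22.2 points, was larger than the mutant's own, 15.0 points. At the sites held by R342C, WT SMC3 lay at 4.29%, against 16.6% at those it lacked, and for R377C at 7.44% against 16.9%. The WT difference was -1.24 points for S354F, -3.47 for R377H, -5.35 for R339Q and -7.11 for R448Q, so that among the mutants with 1 or 0 shared codes it did not order by the codes. For R377H, R339Q and R448Q it was more negative than the mutant's own difference, and for S354F the signs differed. For K365T, H455R, R342C and R377C it had the same sign as the mutant's own and was smaller in size. Sites held by K365T, Q418R or H455R thus carried more SMC3 in the WT line than the recurrent sites those mutants lacked, and sites held by R342C or R377C carried less. The part of the library codes was not tested.

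**Figure D5:**
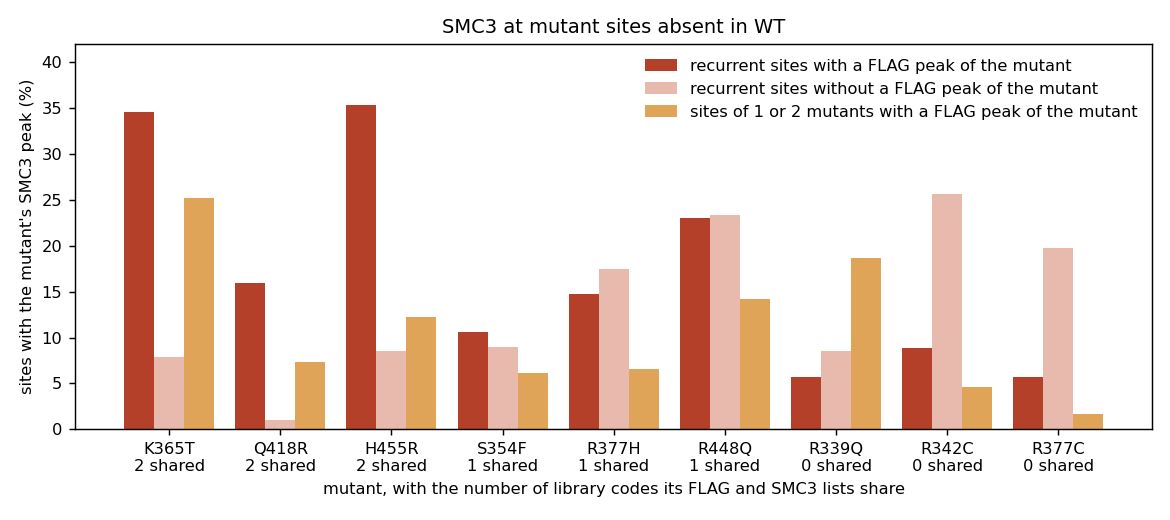
Share (%) of sites with an SMC3 peak of the same mutant, at recurrent sites with and without that mutant's FLAG peak and at sites of 1 or 2 mutants with it; mutants are ordered by the number of library codes that their FLAG and SMC3 lists share. The first bar exceeds the second in the 3 mutants with 2 shared codes (H455R 35.3% and 8.56%) and falls below it in the 3 with 0.

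Recurrent sites had somewhat more SMC3 than sites in 1 or 2 lists in 8 of 9 mutants, but the mean difference did not pass its test. In the WT SMC3 list, without a mutant protein, a peak lay at 10.8% of the recurrent sites and 8.03% of those in 1 or 2 lists. Among sites with a mutant's own FLAG peak, SMC3 lay at 35.3% of the recurrent ones in H455R, against 12.3% of those in 1 or 2 lists, at 34.6% against 25.2% in K365T, at 23.0% against 14.2% in R448Q and at 15.9% against 7.29% in Q418R. R377H had 14.8% against 6.53%, S354F 10.6% against 6.12%, R342C 8.81% against 4.56% and R377C 5.71% against 1.64%, and R339Q alone went the other way, with 5.73% against 18.7%. The mean difference was 6.44 points (SD 9.28, n = 9 mutants) and did not pass the exact two-sided sign-flip permutation test (p = 0.0742). It did pass without R339Q, at 8.14 points (exact permutation p = 0.00781). Leaving out the only negative mutant left positive differences alone, so that p is the smallest that 8 mutants allow. The mean difference was 3.78 points without H455R (exact permutation p = 0.195) and 4.07 without Q418R (exact permutation p = 0.398). In the 5 mutants whose SMC3 peak names carry the tag b1 alone, the difference was positive in 5 of 5 and averaged 10.7 points, with an exact permutation p of 0.0625, the smallest that 5 mutants allow. With only the upper 50% of each mutant FLAG list, where 32 recurrent sites were left, it was 1.24 points (exact permutation p = 0.785). Recurrent sites are wider than those in 1 or 2 lists (273 and 149 bases); with every site cut to 200 bases at its centre the mean difference was 6.01 points (exact permutation p = 0.0742).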

How the data were processed

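ChIPmentation of FLAG, SMC3 and CTCF was deposited as 22 peak lists, each pooling 2 replicates by its title: 10 FLAG, 10 SMC3 and 2 CTCF antibody lists out of 24 groups of the labels. Per the submitters' processing notes, the authors used Trim Galore, Bowtie2, MACS2 and deepTools on mm10, without versions or settings. Each peak has a deposited score from the authors' caller, whose measure is not stated, so scores were ranked only within a list.

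Intervals that a FLAG list repeats for each summit were merged, keeping the highest score. Overlap meant at least 1 bp. Scripts used Python 3.11.15, numpy 2.4.6, pandas 2.3.3, scipy 1.17.1 and matplotlib 3.10.9, and were checked against bedtools 2.31.1 and tested on simulated data. Genes and promoters came from RefSeq tables (GRCm38.p6, that is mm10; 34614 gene spans); each site is named by its nearest protein-coding gene, and promoters by their own gene. The tests over mutants flip the signs of the 9 differences in all 512 ways (exact permutation, two-sided) and are not adjusted for one another. Where nothing says that replicates were separate cultures, they may be technical.

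The sites and gene lists were chosen with earlier results of these data known. Named sites are those in the most lists, those just inside and just outside the rule, those in promoters, those with SMC3 in all genotypes or none, the ends of the groups with the most sites, and the genes holding the most sites. Other settings tried were the upper 50% of lists, a reciprocal overlap of 50%, equal list lengths, a margin of 500 bp, 2 or 5 lists, leaving out each mutant, the tag b1, 5 kb from gene ends and windows of 20 kb and 1 Mb. Chosen after seeing the data were a centre of 200 bases, standardisation over chromosomes, leaving out chromosomes, and subsets of library codes.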

Additional observations from a re-analysis of the deposited data

How the results depend on the processing

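No paired analysis was possible because replicates 1 and 2 are pooled into 1 list for each group. The number of recurrent sites, 891, depended on most settings. It was 515 with a reciprocal overlap of 50% (of mutant FLAG and SMC3 peaks with the interval, absence kept at 1 bp), 2672 with 2 or more lists and 125 with 5 or more. It was 32 from the upper 50% of each mutant list, and 0 from the 3855 strongest peaks of each, for which no other value could be computed. It was 408 without chromosomes 1, 8, 11 and 17, 129 from the 4 mutants with library codes 114 to 127 alone and 462 from the 5 with a code of 261 or above. Leaving out each mutant in turn gave 562 (without R377C) to 818 sites, with 570 without R448Q.

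SMC3 at recurrent sites with minus without the mutant's own FLAG peak kept its positive mean and stayed above the p threshold of 0.05 under every alternative run, at 1.29 (without H455R) to 5.15 points when each mutant was left out. It was 1.16 points for the upper 50% of lists, 0.745 for 5 or more lists and 1.43 when standardised over chromosomes. The excess of SMC3 over sites in 1 or 2 lists (6.44 points, exact permutation p = 0.0742) was positive under every alternative run. By exact permutation it passed the threshold with a reciprocal overlap (6.15 points, p = 0.0430), with 2 or more lists (5.86, p = 0.00391, the smallest possible), with the 42030 strongest SMC3 peaks of each genotype (4.69, p = 0.0352) and when standardised over chromosomes (7.45, p = 0.0469). With 2 or more lists the comparison was with sites in 1 list only, so that value is a different contrast. Leaving out each mutant gave 3.78 to 8.39 points, with exact permutation p between 0.00781 and 0.398. The cause of these changes was not tested.

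The share of recurrent sites with a WT SMC3 peak, 10.8%, was 7.57% with a reciprocal overlap, 6.25% for the upper 50% of lists, 17.6% for 5 or more lists and 8.16% to 13.7% when each mutant was left out. The share at a gene end or promoter, 3.37%, was 0% for the upper 50% of lists, 6.03% for 2 or more lists, 16.5% within 5 kb of a gene end and 2.57% to 4.27% when each mutant was left out. The share within 100 kb of another recurrent site, 33.6%, was 23.1% with a reciprocal overlap, 12.5% for the upper 50% of lists, 50.4% and 18.4% for 2 or more and 5 or more lists, 17.6% without the 4 chromosomes and 26.7% to 33.1% when each mutant was left out; it falls with the number of sites by construction. Windows of 20 kb and 1 Mb gave 12.1% and 75.9%. The median width of 273 bases was 227 with a reciprocal overlap, 313.5 for the upper 50%, 222 and 333 for 2 or more and 5 or more lists, 253 without the 4 chromosomes and 272 to 281 when each mutant was left out.

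The planned search of all recurrent sites for the CTCF motif was not run, since no genome sequence was used here. The depth behind each list is unknown.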
